A study of Mus musculus with 9 samples.

Results

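The embryos compared here are 8-cell mouse embryos in which either *Mfn1* or the genes of histone H3.3 had been knocked down. The 3 MFN1-KD libraries were compared directly with the 3 H3.3-KD libraries, which are 6 of the 9 libraries of the series, and the remaining 3 are controls whose levels are given beside the values and did not enter any test. All groups came from zygotes of ICR mice injected with siRNA and cultured to the 8-cell stage, and every group, the control included, had received siRNA. MFN1-KD received siRNA against *Mfn1*, H3.3-KD received siRNA against both *H3f3a* and *H3f3b*, and control received a nontargeting siRNA. Each library is 1 pool of embryos, 5 to 10 according to the labels and the upper of these numbers in the methods, whose cDNA was primed with oligo-dT and amplified by Smart-Seq2. Values are FPKM, fragments per kilobase of transcript scaled to the fragments of the library, and 13187 of the 55335 entries averaged 1 FPKM or more across the 6 libraries and were tested. A difference is MFN1-KD minus H3.3-KD on the log2(FPKM + 1) scale, which understates differences of genes with low values. A gene is called higher or lower in MFN1-KD when the Benjamini-Hochberg adjusted p of limma is under 0.05 and the difference is more than 2-fold. The libraries of a group are called biological replicates by the study, but neither it nor the labels say for these libraries that the pools came from separate cultures, so the p-values measure only the spread between these pools, which may be technical. In pooled embryos, fewer cells of a kind and less RNA per cell cannot be told apart.

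MFN1 is a GTPase of the outer mitochondrial membrane that tethers mitochondria and, with MFN2, drives the fusion of their outer membranes. H3.3 is the histone H3 variant that is deposited outside DNA replication, by HIRA at active genes and by DAXX with ATRX at repeats, and in the zygote it replaces the protamines of the sperm genome. Setting the knockdowns side by side asks which transcripts separate the loss of a mitochondrial fusion protein from the loss of the histone variant when both are measured at the same stage.

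Promoters of 5 of the genes with the largest differences are shown because these genes recur in the results below. *Prmt1*, *Ddit4* and *Cphx1* were lower in MFN1-KD, and *Slc24a5* and *Slc51a* were higher. Each sequence is the sense strand of 250 bases before and 50 bases after the start of the gene in RefSeq on GRCm38.p6, 5′ to 3′. The window of *Cphx1* lies inside the gene as GENCODE places it, chr14:25938304-25956356, so it may not be the promoter. Capitals mark, on either strand, TATAAA (the TATA box), CCAAT (the site of NF-Y), GGGCGG (the GC box of SP and KLF factors), CCGGAA (the ETS core), CACGTG (an E-box) and TGACG (part of the cAMP response element). None of these motifs contains another, and adjoining or overlapping matches run together.
Prmt1, chr7:44986371-44986670, minus strand: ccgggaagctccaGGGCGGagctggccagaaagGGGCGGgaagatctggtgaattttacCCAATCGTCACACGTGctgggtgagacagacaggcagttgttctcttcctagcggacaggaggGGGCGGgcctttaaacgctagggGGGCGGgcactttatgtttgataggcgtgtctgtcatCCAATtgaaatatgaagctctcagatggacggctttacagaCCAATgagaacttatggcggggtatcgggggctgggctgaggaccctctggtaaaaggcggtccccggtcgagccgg
Ddit4, chr10:59951721-59952020, minus strand: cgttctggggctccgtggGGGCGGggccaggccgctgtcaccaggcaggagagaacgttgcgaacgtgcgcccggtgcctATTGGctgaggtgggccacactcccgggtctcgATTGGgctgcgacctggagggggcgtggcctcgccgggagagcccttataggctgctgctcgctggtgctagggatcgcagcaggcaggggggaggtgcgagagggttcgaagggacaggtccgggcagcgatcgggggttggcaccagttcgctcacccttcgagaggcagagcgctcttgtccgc
Cphx1, chr14:25942294-25942593, plus strand: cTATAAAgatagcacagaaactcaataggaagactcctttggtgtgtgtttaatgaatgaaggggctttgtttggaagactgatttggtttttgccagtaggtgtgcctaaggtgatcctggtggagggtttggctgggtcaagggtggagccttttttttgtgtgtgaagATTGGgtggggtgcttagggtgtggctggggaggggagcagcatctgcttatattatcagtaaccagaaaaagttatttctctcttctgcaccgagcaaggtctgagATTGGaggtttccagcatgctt
Slc24a5, chr2:125067877-125068176, plus strand: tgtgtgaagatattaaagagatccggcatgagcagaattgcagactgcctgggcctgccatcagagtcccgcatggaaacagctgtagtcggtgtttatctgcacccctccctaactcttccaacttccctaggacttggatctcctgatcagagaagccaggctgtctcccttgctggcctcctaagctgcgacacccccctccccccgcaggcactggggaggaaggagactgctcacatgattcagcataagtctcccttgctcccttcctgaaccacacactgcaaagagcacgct
Slc51a, chr16:32487830-32488129, minus strand: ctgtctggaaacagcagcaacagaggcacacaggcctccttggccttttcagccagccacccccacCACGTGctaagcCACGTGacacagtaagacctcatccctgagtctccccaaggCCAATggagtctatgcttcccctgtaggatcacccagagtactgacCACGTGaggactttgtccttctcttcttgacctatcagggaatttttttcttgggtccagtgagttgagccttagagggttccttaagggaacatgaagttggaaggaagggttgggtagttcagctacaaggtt

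The windows differed in composition. The promoter of *Prmt1* held 4 GGGCGG, 3 CCAAT, 1 CACGTG and 1 TGACG match and had 57.7% GC, and that of *Ddit4* held 2 CCAAT and 1 GGGCGG match and had 69.0% GC. The window of *Cphx1* held 1 TATAAA and 2 CCAAT matches and had 46.3% GC with 1 CpG site. The promoter of *Slc51a* held 3 CACGTG matches and 1 CCAAT match, and that of *Slc24a5* held none of the 6 motifs. Of 10223 protein-coding genes tested, 6530 had exactly 1 window in the RefSeq table. GGGCGG was found in 72.0% of the promoters of genes called lower, in 65.9% of those called higher, in 66.0% of those tested and in 35.7% of all 32851 promoters of the table. TATAAA was found in 6.91%, 6.16%, 7.09% and 13.6% of these sets, CCAAT in 40.6%, 37.4%, 40.6% and 37.4%, and CCGGAA in 34.4%, 31.2%, 32.5% and 14.9%. CACGTG was found in 12.6%, 10.1%, 10.8% and 7.15%, and TGACG in 35.1%, 31.0%, 34.2% and 20.8%. The median GC content of the promoters was 61.3% in both called sets and 60.7% in the tested genes. These shares are a description of letters in the windows and were not tested.

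Read counts were not used here, so the depth of the libraries is unknown and a gene at 0 is written as listed at 0. MFN1-KD had 15577 to 20842 genes above 0 FPKM and H3.3-KD had 23655 to 24820, a difference with a two-sided exact permutation p of 0.1, the smallest that 3 libraries against 3 allow. Mitochondrially encoded genes took 11.7% to 22.2% of all FPKM in MFN1-KD, 4.56% to 6.2% in H3.3-KD and 12.2% to 14.2% in control. MFN1-KD replicate 3 stood apart, with 1633 of the tested genes listed at 0 against 370 to 630 in the other 5 libraries compared, and 23.9% of its FPKM in its 10 most abundant genes. Across the tested genes, Pearson's r was 0.875 to 0.918 within MFN1-KD, 0.918 to 0.944 within H3.3-KD and 0.735 to 0.836 between them, as a description with no p since genes are not independent replicates. The embryo transcripts *Dppa3* and *Dppa5a* were abundant in all 6 libraries, at 6244 FPKM or more for *Dppa3* and 4085 FPKM or more for *Dppa5a*.

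The targeted genes were lowest in the embryos injected against them. *Mfn1* was at 9.54, 4.4 and 1.15 FPKM in MFN1-KD and at 100.2, 89.5 and 40.02 FPKM in H3.3-KD, and at 51.6, 22.6 and 23.8 FPKM in control. Every MFN1-KD library lay below every H3.3-KD library and every control library, and the difference was -3.86 (SE 0.62, adjusted p = 0.00387). The mean in MFN1-KD was 6.57% of that in H3.3-KD and 15.4% of that in control, while the mean in H3.3-KD was 235% of the control mean, with 1 H3.3-KD library inside the control range. *Mfn1* lies on chr3:32529465-32579239 of GRCm38 (mm10) on the plus strand.

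*H3f3a* was at 1349, 1371 and 1288 FPKM in MFN1-KD and at 169.7, 117 and 161 FPKM in H3.3-KD. *H3f3b* was at 2831, 2836 and 2695 FPKM in MFN1-KD and at 311, 171 and 257 FPKM in H3.3-KD. For both genes the MFN1-KD libraries lay above all H3.3-KD libraries with no overlap. The differences were 3.17 (SE 0.21, adjusted p = 3.3e-04) for *H3f3a* and 3.54 (SE 0.24, adjusted p = 3.3e-04) for *H3f3b*. The means in H3.3-KD were 7.72% and 8.24% of the control means, and the means in MFN1-KD were 69.1% and 93.3% of them, with all 3 MFN1-KD libraries below all 3 controls for both genes. *H3f3a* lies on chr1:180800832-180813943 and *H3f3b* on chr11:116021912-116027962, both on the minus strand. *Mfn1*, *H3f3a* and *H3f3b* kept their calls under every alternative tried, and processed copies of both H3.3 genes exist in the genome, so their reads could be split between copies.

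*Mfn2*, which encodes the other mitofusin and was not targeted, also differed. *Mfn2* was at 1.7, 3.38 and 1.66 FPKM in MFN1-KD and at 10.4, 11.8 and 12.1 FPKM in H3.3-KD, and at 4.33, 3.66 and 3.41 FPKM in control. No library of MFN1-KD overlapped H3.3-KD, and the difference was -1.97 (SE 0.36, adjusted p = 0.0064). The control values lay between the groups, above every MFN1-KD and below every H3.3-KD library. The plot of the targeted genes shows the values of the 9 libraries.

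**Figure D1:**
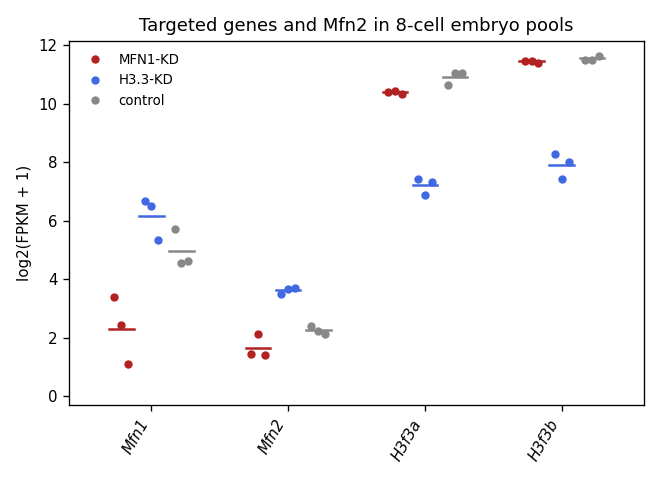
Levels of *Mfn1*, *Mfn2*, *H3f3a* and *H3f3b* as log2(FPKM + 1) on the y axis, with 1 point per library and a bar at the mean of the 3 libraries of each group. *Mfn1* and *Mfn2* are lowest in MFN1-KD, and both H3.3 genes are lowest in H3.3-KD.

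Across the transcriptome 998 genes were called higher in MFN1-KD, 7.57% of those tested, and 2837 were called lower, 21.5%, together 29.1%. Groups without overlap were found for 1935 genes with MFN1-KD above (14.7%) and 4428 with MFN1-KD below (33.6%), together 48.3%. By the threshold of the study, which is more than 2-fold at an unadjusted p under 0.05, there were 1356 higher (10.3%) and 3639 lower genes (27.6%). The excess of lower genes depended on scaling. The higher genes were 26.0% of the adjusted calls with FPKM as deposited, 45.3% after median-ratio scaling, 48.9% after upper-quartile scaling and 51.0% after the dependence on transcript GC content and length was taken out of each library. The median difference of all genes was -0.42 as deposited, -0.08 after median-ratio scaling, -0.04 after upper-quartile scaling and 0.01 after removing the trend, so medians of gene lists are given relative to -0.42. In all 4 settings 711 genes were called higher, 5.39% of those tested and 71.2% of the 998, and 907 were called lower, 6.88% of those tested and 32.0% of the 2837. No called gene took the opposite call in any setting tried.

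The position of the controls was described without a test. Where no libraries of any pair of groups overlapped, the most frequent order was MFN1-KD below control below H3.3-KD, with 687 genes or 5.21% of those tested, 641 of them called lower. The opposite order, H3.3-KD below control below MFN1-KD, held for 254 genes or 1.93%, 223 of them called higher. Control lay lowest and MFN1-KD between control and H3.3-KD for 214 genes or 1.62%, 123 of them called lower. For 689 of the 998 genes called higher (69.0%) and 2331 of the 2837 called lower (82.2%), the control mean was closer to MFN1-KD than to H3.3-KD on the log2(FPKM + 1) scale. This share was not taken over all genes tested. Across all of them, Pearson's r with control libraries was 0.848 to 0.930 for MFN1-KD and 0.793 to 0.878 for H3.3-KD. These r values are another measure and include the called genes, so whether the nearness to control is particular to the called genes was not tested. The plot of group means shows the called genes on both sides of the diagonal.

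**Figure D2:**
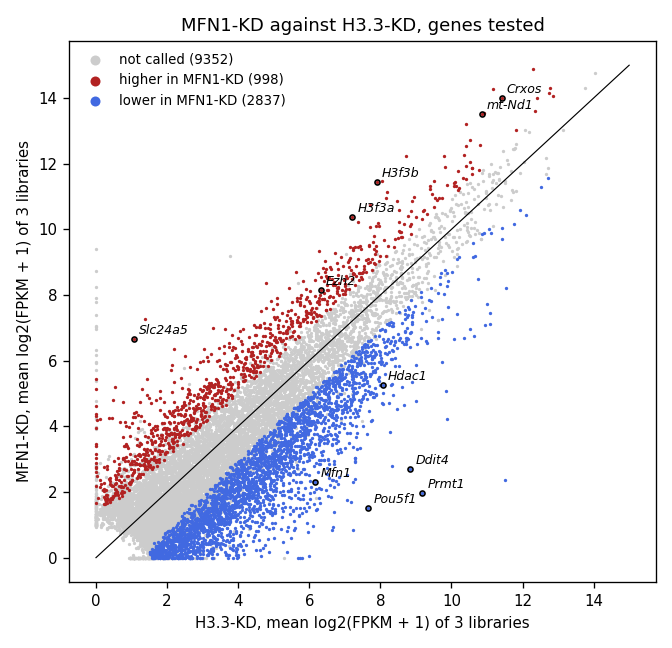
Mean log2(FPKM + 1) of the 3 H3.3-KD libraries on the x axis against the 3 MFN1-KD libraries on the y axis for the 13187 genes tested, with the line of equal values. The 998 genes called higher in MFN1-KD (red) lie above the line and the 2837 called lower (blue) below it, and the names mark a few genes of the text.

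The largest differences lay among genes lower in MFN1-KD, taken from the 1606 lower genes with no overlap, a mean of at least 10 FPKM and a protein-coding annotation. *Prmt1* was at 2.39, 4.84 and 2.05 FPKM in MFN1-KD and at 523, 586 and 639 FPKM in H3.3-KD, and at 6.56, 4.01 and 2.7 FPKM in control. *Prmt1* encodes the main type I arginine methyltransferase. The MFN1-KD values lay within or just below the control values and the H3.3-KD values far above both, a difference of -7.21 (SE 0.31, adjusted p = 2.3e-04). *Ddit4* was at 7.15, 4.87 and 4.81 FPKM in MFN1-KD and at 285, 385 and 879 FPKM in H3.3-KD, and at 2.89, 1.31 and 1.88 FPKM in control. *Ddit4* encodes REDD1, a stress-induced inhibitor of mTORC1. The order was control below MFN1-KD below H3.3-KD, and the MFN1-KD against H3.3-KD difference was -6.14 (SE 0.43, adjusted p = 3.3e-04).

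*Pou5f1* was at 3.68, 2.74 and 0.3 FPKM in MFN1-KD and at 330.3, 392.19 and 63.1 FPKM in H3.3-KD, and at 7.73, 8.9 and 5.1 FPKM in control. *Pou5f1* encodes OCT4, the homeodomain factor of pluripotent cells. The lowest H3.3-KD library was still over every control and MFN1-KD library, H3.3-KD replicate 3 was far below the other two, and the difference was -6.16 (SE 0.76, adjusted p = 0.00163). *Cphx1* was at 0.13, 0 and 0 FPKM in MFN1-KD and at 72.3, 48.5 and 70.6 FPKM in H3.3-KD. This homeobox gene of early embryos was listed at 0 in MFN1-KD replicates 2 and 3, was at 0.33, 14.8 and 12.5 FPKM in control, and differed by -5.94 (SE 0.33, adjusted p = 2.8e-04). *Rpp25*, which encodes a subunit of RNase P and RNase MRP, was at 0.83, 1.53 and 0.21 FPKM in MFN1-KD and 89.0, 86.3 and 127 FPKM in H3.3-KD. Its difference was -5.82 (SE 0.38, adjusted p = 3.3e-04). *Urm1*, a ubiquitin-like sulphur carrier for tRNA modification, was at 3.82, 4.81 and 4.11 FPKM in MFN1-KD and 167, 136 and 167 FPKM in H3.3-KD, without overlap. The other 4 of the 10 largest were *Tdpoz4* at -5.55, *Tmppe* at -5.31, *Gm21887* at -5.18 and *Lmbr1l* at -5.12. *Tdpoz4* and *Cphx1* have close relatives in the genome, so reads could be split between copies.

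Among the 627 genes that met the same rule in the other direction, the largest difference was that of *Slc24a5*, a sodium, potassium and calcium exchanger best known from pigment cells. *Slc24a5* was at 136, 97.8 and 77.3 FPKM in MFN1-KD and at 0.93, 1.42 and 0.95 FPKM in H3.3-KD. In control it was at 109, 82.7 and 44.7 FPKM, overlapping MFN1-KD and far above H3.3-KD. The difference was 5.61 (SE 0.33, adjusted p = 3.3e-04). *Slc51a* was at 16.9, 18.5 and 53.3 FPKM in MFN1-KD and at 1.18, 1.12 and 1.86 FPKM in H3.3-KD, and this subunit of an organic solute and bile acid transporter was at 5.97, 4.4 and 3.95 FPKM in control. MFN1-KD lay above control and control above H3.3-KD without overlap, and the difference was 3.50 (SE 0.49, adjusted p = 0.00247). *mt-Nd3* was at 2589.7, 3172 and 2868 FPKM in MFN1-KD and at 244, 269 and 284 FPKM in H3.3-KD. This mitochondrially encoded subunit of complex I was higher still in control, at 3322, 6435 and 5248 FPKM, and differed by 3.43 (SE 0.18, adjusted p = 2.6e-04).

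*Slc13a4* was at 23.8, 7.93 and 45.3 FPKM in MFN1-KD and at 1.28, 0.38 and 2.22 FPKM in H3.3-KD. This sodium and sulfate cotransporter differed by 3.33 (SE 0.64, adjusted p = 0.00759), with MFN1-KD replicate 2 the lowest of its group and still above H3.3-KD. *Dnah14* was at 15.03, 12.3 and 32.8 FPKM in MFN1-KD and at 1.65, 1.33 and 0.61 FPKM in H3.3-KD. The gene encodes an axonemal dynein heavy chain and differed by 3.17 (SE 0.46, adjusted p = 0.00277). *Ccdc167* differed by 3.18 (SE 0.42, adjusted p = 0.00208) and *E130218I03Rik* by 3.26 (SE 0.50, adjusted p = 0.00333). *G530012D18Rik* was at 85.5, 56.8 and 389 FPKM in MFN1-KD and at 13.8, 5.74 and 17.5 FPKM in H3.3-KD, so MFN1-KD replicate 3 was several times the other two, and the difference was 3.35 (SE 0.72, adjusted p = 0.0116). *H3f3a* and *H3f3b*, the siRNA targets, complete the 10. The calls of the 20 genes held under every alternative tried. The plot of the 20 largest differences shows each library.

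**Figure D3:**
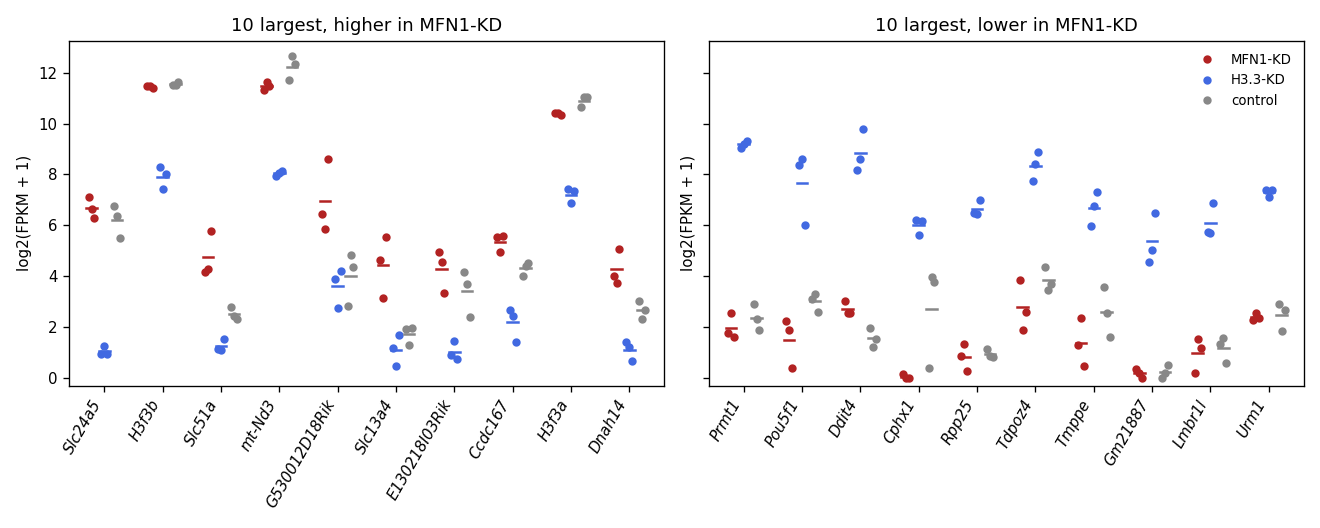
The 10 largest positive and 10 largest negative differences that met the rule, as log2(FPKM + 1) on the y axis, with 1 point per library and a bar at each group mean. MFN1-KD (red) and H3.3-KD (blue) do not overlap for any of these genes, which is part of the rule, and for the lower genes the mean of control (grey) lies nearer to MFN1-KD, although 2 of the 3 control libraries lie nearer to H3.3-KD for *Cphx1*.

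The difference followed the base composition of transcripts. Over the 12947 tested genes with a GC content and length, Spearman's rho between the difference and transcript GC content was -0.443, and that with length was 0.00707, both descriptions across genes with no p. The relation with length was not monotone, with a median difference of 0.17 in the tenth of genes with the shortest transcripts, -0.85 in the fourth and 0.10 in that with the longest, and with 7.95%, 31.1% and 11.8% called lower. In the tenth of genes with the lowest GC content, median 38.9%, the median difference was 0.56, 18.9% were called higher and 2.01% lower. In the tenth with the highest, median 59.2%, the median difference was -1.32, 3.17% were called higher and 45.5% lower. Within single libraries, rho between FPKM and GC content was -0.226 to -0.2 in MFN1-KD and 0.0385 to 0.0571 in H3.3-KD, with control at -0.146 to -0.124. The median transcript GC content was 44.8% for genes called higher with a promoter window and 54.1% for those called lower, although the promoters of both had a median of 61.3%. The part of GC content in the calls was not tested beyond the fit without the trend, which left 1167 higher and 1120 lower of the 12947 genes. The counts of each gene list are therefore given below with that trend and without it. List counts without the trend are to be read against these 1167 higher and 1120 lower of 12947 genes. For all genes the shares higher and lower were 7.57% and 21.5% as deposited, and 5.39% and 6.88% in all 4 settings. The plot by GC content shows the medians before and after the trend was removed.

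**Figure D4:**
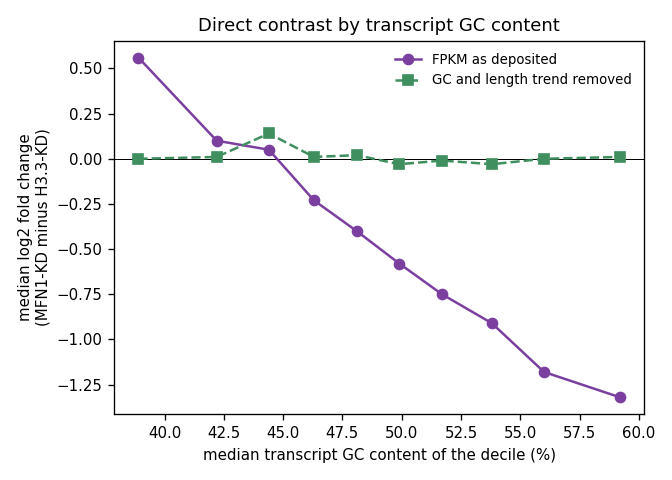
Median difference between MFN1-KD and H3.3-KD (log2 scale, y axis) in 10 equal groups of genes ordered by transcript GC content, with the median GC content of each group in percent on the x axis. With FPKM as deposited (circles) the median goes from 0.56 to -1.32, and after the GC and length trend of each library is removed (squares) it stays between -0.03 and 0.14.

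Among 10 H3.3 genes and chaperones, 3 were called higher and 3 lower. The higher ones were the targeted *H3f3a* and *H3f3b* and *Dek*. The lower ones were *Hira*, *Cabin1* and *Hirip3*, of which HIRA and CABIN1 belong to the complex that deposits H3.3 at active genes. *Hira* was at 12.2, 7.77 and 1.15 FPKM in MFN1-KD and at 36.3, 43.6 and 63.9 FPKM in H3.3-KD, and at 11.5, 12.9 and 9.88 FPKM in control. The MFN1-KD values were below all H3.3-KD values and overlapped control, with a difference of -2.92 (SE 0.65, adjusted p = 0.0133), and the call was lost without H3.3-KD replicate 3. After the GC and length trend was removed 2 of the 10 genes, the siRNA targets, were called higher and 0 lower, so the calls of *Hira*, *Cabin1*, *Hirip3* and *Dek* were lost. *Daxx* at -0.78 (SE 0.55, adjusted p = 0.312) and *Atrx* at 0.14 (SE 0.26, adjusted p = 0.713) were not called and their groups overlapped.

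Of 24 general histone chaperones, 12 were called lower and 2 higher, with a median of -0.92 relative to all genes, and 4 of the 12 were lower in all 4 settings. Without the trend 2 were higher and 5 lower, with a median of -0.63. *Npm3*, a nucleoplasmin, was at 3.13, 2.62 and 1.14 FPKM in MFN1-KD and 67.5, 72.0 and 43.8 FPKM in H3.3-KD, with control at 2.57, 1.85 and 1.42 FPKM. The difference was -4.26 (SE 0.38, adjusted p = 6.5e-04). *Chaf1a*, the large subunit of the chromatin assembly factor that loads H3.1 at replication, differed by -2.27 (SE 0.46, adjusted p = 0.00908), with control between the groups. *Asf1b*, which hands H3 and H4 to both pathways, differed by -1.33 (SE 0.30, adjusted p = 0.0137), a call that was lost under both scalings, without the trend and without H3.3-KD replicate 2, whereas its paralogue *Asf1a* at 0.19 (SE 0.26, adjusted p = 0.604) was not called. *Nasp*, a chaperone of soluble H3 and H4, was higher at 1.19 (SE 0.22, adjusted p = 0.00629), but not after removal of the trend or when only protein-coding genes were kept. *Npm2*, the maternal nucleoplasmin, was not called at 0.07 (SE 0.41, adjusted p = 0.919).

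Of 31 replication-dependent histones tested 3 were called higher and 3 lower, 9.68% in each direction, against 7.57% and 21.5% of all genes. After the trend was removed 5 were higher and 1 lower. These transcripts mostly lack poly(A) tails, so oligo-dT priming sees only part of them. *Hist2h2bb* was at 28.0, 10.9 and 6.48 FPKM in MFN1-KD, 212, 219 and 165 FPKM in H3.3-KD and 0.93, 5.91 and 2.36 FPKM in control, a difference of -3.85 (SE 0.47, adjusted p = 0.0016). Of 9 other histone variants 3 were lower (33.3%) and 1 higher (11.1%). Without the trend 1 were higher and 2 lower, and their median relative to all genes went from -0.27 to 0.03. *H2afx* was at 21.2, 24.0 and 21.2 FPKM in MFN1-KD and at 396, 229 and 482 FPKM in H3.3-KD. H2A.X, whose phosphorylation marks DNA breaks, thus differed by -3.93 (SE 0.31, adjusted p = 5.8e-04), and its control values, 34.2, 27.5 and 17.0 FPKM, overlapped MFN1-KD. *H1fx*, a linker histone, was listed at 0 in all controls and differed by -3.65 (SE 0.43, adjusted p = 0.00137). *H2afv*, which encodes an H2A.Z protein, was the variant called higher, at 1.24 (SE 0.25, adjusted p = 0.00981).

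Transcripts of the respiratory chain were called mainly in the other direction. In a list of 15 mitochondrially encoded genes 11 were called higher (73.3%, against 7.57% of all genes) and 0 lower. The list is a part of the mitochondrial genome, of which 34 genes were tested, 11 called higher (32.4%) and 0 lower. All 11 of the list were higher in the 4 settings, as were 5.39% of all genes, and the list median was 2.63 relative to all genes. After removal of the GC and length trend the list median was 1.51, the difference of *mt-Nd3* was 1.63 in place of 3.43, and 1 of the other 4 genes of the list was called lower. *mt-Nd1* was at 12966, 11124 and 11415 FPKM in MFN1-KD and at 1889.7, 1826 and 1851 FPKM in H3.3-KD. The range within each group was narrow and the difference was 2.67 (SE 0.14, adjusted p = 2.6e-04). *mt-Rnr2*, the large ribosomal RNA, differed by 3.12 (SE 0.19, adjusted p = 3.3e-04) and lay above control in MFN1-KD and below it in H3.3-KD. *mt-Nd1* and *mt-Nd3* were below control in both knockdowns. The 4 of the list that were not called were *mt-Co2*, *mt-Atp6*, *mt-Atp8* and *mt-Nd4l*. Nuclear copies of mitochondrial DNA could share some of these reads.

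Nuclear-encoded subunits were also called higher more often than lower. Of 49 genes of complex I and its assembly, 19 were called higher (38.8%) and 3 lower (6.12%). Of 58 genes of complexes II to V, 19 were called higher (32.8%) and 5 lower (8.62%). The shares of all genes were 7.57% and 21.5%, and the list medians were 1.09 and 0.77 relative to all genes. In all 4 settings 18 and 17 of the genes of these lists were higher, against 5.39% of all genes. Removing the trend gave 23 and 24, against 1167 of all 12947 genes in that fit. *Ndufa12* was at 622, 689.6 and 822 FPKM in MFN1-KD and at 204, 169 and 130.0 FPKM in H3.3-KD. Control, at 338, 383 and 449 FPKM, lay between the groups, and the difference was 2.09 (SE 0.24, adjusted p = 0.00128). *Ndufaf2*, an assembly factor, differed by 2.19 (SE 0.31, adjusted p = 0.00255), *Cycs*, cytochrome c, by 2.27 (SE 0.30, adjusted p = 0.00209), and the ATP synthase subunits *Atp5j* and *Atp5k* by 2.05 (SE 0.19, adjusted p = 6.8e-04) and 2.37 (SE 0.29, adjusted p = 0.00163). The genes furthest in the other direction were *Ecsit*, a complex I assembly factor also of innate signalling, at -2.60 (SE 0.41, adjusted p = 0.00364), and *Atp5d*, the delta subunit of the ATP synthase, at -2.94 (SE 0.48, adjusted p = 0.00432).

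Genes of mitochondrial fusion and fission did not share this direction. Of 28 tested 0 were higher and 7 were lower (25.0%, against 21.5% of all genes), with a median of -0.46 relative to all genes, and the targeted *Mfn1* is one of the 7. Removal of the trend left 2 lower and 0 higher. *Phb2*, an inner membrane prohibitin, was at 89.5, 87.8 and 53.8 FPKM in MFN1-KD and 280.5, 282 and 204 FPKM in H3.3-KD, and differed by -1.74 (SE 0.28, adjusted p = 0.00412). *Msto1*, which promotes fusion, differed by -1.94 (SE 0.34, adjusted p = 0.00557). Both lost their call when the GC and length trend was removed. *Opa1*, the inner membrane fusion GTPase, at 0.08 (SE 0.45, adjusted p = 0.915), and *Dnm1l*, the fission GTPase DRP1, at 0.65 (SE 0.28, adjusted p = 0.119), were not called, although no library of *Dnm1l* overlapped between the groups. After median-ratio scaling *Dnm1l* was called higher, at 1.05 (adjusted p = 0.0264), and the list had 2 genes higher and 6 lower.

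Cytoplasmic ribosomal proteins were called higher more often than lower. Of 82 cytoplasmic ribosomal proteins 13 were called higher (15.9%, against 7.57% of all genes) and 4 lower (4.88%, against 21.5%). In 41 of them MFN1-KD lay above H3.3-KD without overlap, which held for 14.7% of all genes. The median was 0.81 relative to all genes, and after median-ratio scaling, with 12.0% of all genes called higher and 14.5% lower, 35 of the 82 were called higher and 2 lower. After removal of the trend 35 and 1 were, against 1167 and 1120 of all 12947 genes in that fit. *Rpl38* was at 6045, 6334 and 5839 FPKM in MFN1-KD and at 2083, 1876 and 1482 FPKM in H3.3-KD, a difference of 1.76 (SE 0.18, adjusted p = 8.4e-04). *Rps26* differed by 1.53 (SE 0.17, adjusted p = 0.00111) and *Rpl41* by 1.20 (SE 0.14, adjusted p = 0.00128), the latter not called among protein-coding genes only. Among the 4 lower genes was *Rps2*, at 320.0, 541 and 268 FPKM in MFN1-KD and 2118, 1183 and 2081 FPKM in H3.3-KD, which differed by -2.27 (SE 0.33, adjusted p = 0.00297). Reads of this family could be split between genes and their many processed copies. Of 79 mitochondrial ribosomal proteins 11 were higher (13.9%) and 9 lower (11.4%) with FPKM as deposited, 20 and 7 after median-ratio scaling, 22 and 3 without the trend, and 11 and 2 in all 4 settings. *Mrps18c* at 2.60 (SE 0.33, adjusted p = 0.00173) and *Mrps33* at 2.32 (SE 0.25, adjusted p = 0.00102) were among the former, and *Mrpl4* at -2.04 (SE 0.28, adjusted p = 0.00234) among the latter, a call lost without the GC and length trend.

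Of 58 translation factors 4 were higher (6.9%) and 13 lower (22.4%), close to all genes, and without the trend 3 and 6 were. *Eef2* was at 125, 112 and 74.7 FPKM in MFN1-KD and at 652, 819 and 892 FPKM in H3.3-KD. The elongation factor eEF2 thus differed by -2.93 (SE 0.26, adjusted p = 6.5e-04), with control at 186, 146 and 94.2 FPKM. *Eif4g1*, the scaffold of the cap-binding complex, differed by -2.48 (SE 0.34, adjusted p = 0.00231), and *Paip1*, which binds poly(A)-binding protein, went the other way at 2.00 (SE 0.28, adjusted p = 0.00259). Among 43 proteasome genes 4 were higher (9.3%) and 6 lower (14.0%), and 8 and 2 without the trend. The regulatory subunits *Psmd3* and *Psmd13* differed by -3.04 (SE 0.27, adjusted p = 6.5e-04) and -3.13 (SE 0.33, adjusted p = 9.7e-04), and the activator *Psme4*, which acts on acetylated histones, by 2.34 (SE 0.34, adjusted p = 0.00287).

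Enzymes and remodellers of chromatin are read here against the 21.5% of all genes called lower and the 7.57% called higher. Called lower were 6 of 11 protein arginine methyltransferases and their partners (54.5%), with a median of -0.87 relative to all genes, 10 of 28 deacetylases and acetyltransferases (35.7%) and 17 of 44 remodellers (38.6%). Lysine methyltransferases and demethylases lay near the background, with 13 of 51 lower (25.5%) and 5 higher (9.8%). In the first 3 lists 0, 3 and 2 were higher. In all 4 settings 2, 3, 6 and 3 of the 4 lists were lower, against 6.88% of all genes. Removal of the trend left 4, 3, 8 and 3 lower and 0, 4, 4 and 8 higher. In that fit 1120 of all 12947 genes were lower and 1167 higher. Beside *Prmt1*, *Wdr77*, the partner of PRMT5, differed by -1.71 (SE 0.22, adjusted p = 0.00179), and *Carm1* by -2.57 (SE 0.48, adjusted p = 0.00697), which was lost without the GC and length trend. *Hdac1* was at 33.7, 34.0 and 44.9 FPKM in MFN1-KD and at 281, 304 and 221 FPKM in H3.3-KD. Control, at 84.3, 78.8 and 69.8 FPKM, lay between the groups without overlap, and the difference was -2.81 (SE 0.25, adjusted p = 6.5e-04). *Kat5*, the TIP60 acetyltransferase, differed by -3.09 (SE 0.30, adjusted p = 7.8e-04), and *Mta2* of the NuRD complex by -3.32 (SE 0.35, adjusted p = 9.8e-04). *Setd1a*, an H3K4 methyltransferase, differed by -2.77 (SE 0.39, adjusted p = 0.0026).

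Some chromatin proteins went the other way. *Ezh2* was at 216, 257 and 404 FPKM in MFN1-KD and at 83.3, 78.3 and 76.6 FPKM in H3.3-KD. EZH2, the H3K27 methyltransferase of PRC2, thus differed by 1.82 (SE 0.27, adjusted p = 0.00325), with MFN1-KD above all other libraries. *Crebbp*, the acetyltransferase CBP, was at 51.3, 86.1 and 68.0 FPKM in MFN1-KD, 12.6, 12.4 and 18.1 FPKM in H3.3-KD and 44.1, 36.0 and 24.2 FPKM in control. The difference was 2.17 (SE 0.31, adjusted p = 0.00263). *Setd2*, the H3K36 trimethylase, and *Bptf*, the NURF subunit, differed by 1.62 (SE 0.24, adjusted p = 0.0028) and 1.84 (SE 0.31, adjusted p = 0.00497). Of 16 DNA methylation genes 1 was higher (6.25%) and 2 lower (12.5%), and 2 and 0 without the trend. *Dppa3* was at 20351, 18275 and 16697 FPKM in MFN1-KD and at 6725, 7699 and 6244 FPKM in H3.3-KD, and at 10642, 13542 and 13913 FPKM in control. *Dppa3*, a maternal protein that protects the maternal genome from demethylation, differed by 1.42 (SE 0.15, adjusted p = 0.00101). *Dnmt3b* at -0.44 (SE 0.42, adjusted p = 0.444) and *Dnmt3l* at -0.25 (SE 0.53, adjusted p = 0.749) were not called.

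Of 28 pluripotency factors 9 were lower (32.1%, against 21.5% of all genes) and 2 higher (7.14%), and 3 of the 9 were lower in all 4 settings. Without the trend 4 were lower and 4 higher. Next to *Pou5f1*, *Klf17* was at 25.2, 23.9 and 24.6 FPKM in MFN1-KD, 195, 255 and 401 FPKM in H3.3-KD and 50.1, 30.7 and 29.8 FPKM in control, and differed by -3.41 (SE 0.30, adjusted p = 6.5e-04). *Nanog* at 0.39 (SE 0.40, adjusted p = 0.485) was not called and overlapped. *Dppa5a*, an RNA-binding protein of pluripotent cells, was higher at 1.24 (SE 0.21, adjusted p = 0.00452). *Sox2* had a mean under 1 FPKM and was not tested.

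Of 27 trophectoderm and primitive endoderm genes 10 were lower (37.0%, against 21.5% of all genes) and 0 higher. The median was -0.81 relative to all genes, and 3 of the 10 were lower in all 4 settings. Removal of the trend left 3 lower and 0 higher, with a median of -0.25. *Cldn4* was at 11.01, 7.74 and 0.56 FPKM in MFN1-KD and at 104, 118 and 119 FPKM in H3.3-KD. This tight junction claudin was at 7.97, 4.15 and 3.29 FPKM in control and differed by -4.39 (SE 0.70, adjusted p = 0.00389). *Hand1*, a trophoblast factor, differed by -2.82 (SE 0.37, adjusted p = 0.00194). *Cdx2* was at 0, 0.06 and 0 FPKM in MFN1-KD and 2.21, 6.24 and 0.57 FPKM in H3.3-KD and was not called at -1.70 (SE 0.60, adjusted p = 0.0671). *Gata3* and *Gata6* were not called either, at -0.70 (SE 0.56, adjusted p = 0.37) and 0.27 (SE 0.55, adjusted p = 0.738).

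In the Hippo list, 5 of 20 genes were lower (25.0%) and 1 higher (5.0%), near the 21.5% and 7.57% of all genes. The counts were 1 and 1 without the trend, when the median relative to all genes went from 0.17 to -0.18. *Yap1* was at 9.06, 13.3 and 12.0 FPKM in MFN1-KD and at 36.3, 45.9 and 69.2 FPKM in H3.3-KD. The coactivator differed by -2.01 (SE 0.33, adjusted p = 0.00444), and control was at 9.37, 9.43 and 6.29 FPKM. Its partner *Tead4* differed by -1.41 (SE 0.25, adjusted p = 0.00589), but its call was lost under both scalings and its difference was 0.01 after removal of the trend over GC and length. *Amot*, which holds YAP in the cytoplasm of inner cells, was the gene called higher, at 11.6, 12.9 and 11.4 FPKM in MFN1-KD and 1.18, 1.85 and 0.15 FPKM in H3.3-KD, a difference of 2.75 (SE 0.43, adjusted p = 0.00358). Of 36 genes of compaction, adhesion and polarity 9 were lower (25.0%) and 2 higher (5.56%), also near the shares of all genes. The counts were 5 and 3 without the trend, when the median went from -0.07 to 0.24. *Jup*, plakoglobin, differed by -3.46 (SE 0.36, adjusted p = 9.3e-04), the polarity protein *Crb3* by -2.69 (SE 0.29, adjusted p = 0.00109) and the junctional adhesion molecule *F11r* by -2.87 (SE 0.33, adjusted p = 0.00128). *Ctnnb1*, beta-catenin, was higher at 1.98 (SE 0.29, adjusted p = 0.00297), and *Cdh1*, E-cadherin, was not called at -0.42 (SE 0.32, adjusted p = 0.358).

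Few maternal transcripts were called. Of 57 maternal and subcortical complex genes 2 were called higher and 3 lower, shares of 3.51% and 5.26% against 7.57% and 21.5% of all genes, and their median was 0.02 relative to all genes. Without the trend 3 were higher and 0 lower. *Padi6* was at 4.53, 4.54 and 0.33 FPKM in MFN1-KD and at 14.1, 14.9 and 6.91 FPKM in H3.3-KD, and at 13.2, 14.7 and 12.8 FPKM in control. *Padi6*, a component of cytoplasmic lattices, did not overlap between the groups but did not pass the test, at -1.85 (SE 0.63, adjusted p = 0.0582). *Tle6* at -0.73 (SE 0.59, adjusted p = 0.373), *Ooep* at -0.29 (SE 0.50, adjusted p = 0.687) and *Nlrp5* at 0.80 (SE 0.43, adjusted p = 0.193) were not called. *Omt2b* was higher at 2.03 (SE 0.42, adjusted p = 0.0102).

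Of 40 genes of the 2-cell activation wave 0 were higher and 4 lower (3 without the trend). The 4 are 10.0% of the list, against 21.5% of all genes, and *Zscan4d* at -0.13 (SE 0.52, adjusted p = 0.873) was not called. *Tdpoz4* and *Tdpoz5*, which lie in 1 multicopy family, were lower at -5.55 (SE 0.53, adjusted p = 7.0e-04) and -4.26 (SE 0.49, adjusted p = 0.00128). Of 14 Obox and homeobox genes 1 was higher (7.14%) and 2 lower (14.3%), and 1 and 1 without the trend. *Crxos* was at 13087, 12757 and 26653 FPKM in MFN1-KD and at 2752, 2656 and 2776 FPKM in H3.3-KD. *Crxos*, among the most abundant transcripts of these embryos, differed by 2.59 (SE 0.28, adjusted p = 0.0011), whereas *Obox8* differed by -1.90 (SE 0.31, adjusted p = 0.00403).

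Genes of the integrated stress response and of the p53 list were called lower at 39.4% and 37.1%, against 21.5% of all genes. They were called higher at 3.03% and 2.86%, against 7.57%. Of 33 genes of the integrated stress response 13 were lower and 1 higher, with a median of -0.88 relative to all genes, and 8 of the 13 were lower in all 4 settings. Removal of the trend left 9 lower and 3 higher, with a median of -0.45. Of 35 p53 and growth arrest genes 13 were lower and 1 higher, with a median of -0.75, and 5 of the 13 were lower in all 4 settings. Removal of the trend left 6 lower and 0 higher, with a median of -0.50. *Ddit4* and *Sesn2* belong to both lists. *Sesn2* was at 3.76, 7.65 and 1.2 FPKM in MFN1-KD and at 71.3, 115 and 134 FPKM in H3.3-KD. This stress-induced inhibitor of mTORC1 was at 4.54, 1.05 and 1.15 FPKM in control and differed by -4.54 (SE 0.52, adjusted p = 0.00128). *Phgdh* was at 7.99, 10.9 and 9.32 FPKM in MFN1-KD and at 121, 152 and 181 FPKM in H3.3-KD. The first enzyme of serine synthesis differed by -3.86 (SE 0.27, adjusted p = 3.3e-04), with control between the groups at 42.2, 23.9 and 22.4 FPKM.

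*Cebpb*, a bZIP factor, differed by -3.97 (SE 0.38, adjusted p = 7.0e-04), and *Atf4*, the factor that drives the response, by -1.33 (SE 0.26, adjusted p = 0.00774), although the call of *Atf4* was lost under both scalings and without the trend. *Asns*, asparagine synthetase, did not pass at -1.74 (SE 0.58, adjusted p = 0.0559). *Xpot*, the tRNA exportin, was the gene called higher, at 1.61 (SE 0.28, adjusted p = 0.00511). In the p53 list, *Bbc3*, which encodes the BH3 protein PUMA, was at 0.2, 1.03 and 0.22 FPKM in MFN1-KD and 9.73, 9.36 and 17.8 FPKM in H3.3-KD. The difference was -3.15 (SE 0.42, adjusted p = 0.00219), a call lost without the trend. *Trp53* was at 1.52, 9.02 and 1.16 FPKM in MFN1-KD and at 27.6, 8.15 and 18.1 FPKM in H3.3-KD. The groups overlapped and the call, -2.17 (SE 0.68, adjusted p = 0.0452), was lost without any of the libraries but MFN1-KD replicate 2, under both scalings and in most other alternatives. *Cdkn1a* at -1.44 (SE 0.58, adjusted p = 0.0973) and *Mdm2* at -1.07 (SE 0.37, adjusted p = 0.064), targets of p53, were not called.

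Of 49 genes of the unfolded protein response and heat shock 17 were lower (34.7%) and 3 higher (6.12%), against 21.5% and 7.57% of all genes. The median was -0.32 relative to all genes. Without the trend 4 were lower and 3 higher, with a median of -0.08. *Hspa5*, the endoplasmic reticulum chaperone BiP, differed by -1.50 (SE 0.29, adjusted p = 0.00799) and its partner *Hyou1* by -2.11 (SE 0.39, adjusted p = 0.0064). *Hsp90ab1* was at 922, 993 and 619 FPKM in MFN1-KD and 2998, 2728 and 2530.3 FPKM in H3.3-KD, a difference of -1.73 (SE 0.22, adjusted p = 0.0018) that was not called without the trend. Of 28 apoptosis genes 9 were lower (32.1%) and 1 higher (3.57%), but 1 and 1 without the trend and 1 and 1 in all 4 settings. *Bcl2l1*, which encodes the survival protein BCL-xL, differed by -2.68 (SE 0.35, adjusted p = 0.00203), in the same direction as the death-promoting *Bbc3*. The gene called higher was *Birc6*, a large inhibitor of apoptosis, at 178, 219 and 139 FPKM in MFN1-KD and 38.3, 33.5 and 38.9 FPKM in H3.3-KD. Its difference was 2.23 (SE 0.25, adjusted p = 0.00128), and control lay between the groups.

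Of 86 cell cycle and replication genes 26 were lower (30.2%) and 7 higher (8.14%), against 21.5% and 7.57% of all genes. The counts were 11 and 5 in all 4 settings and 11 and 9 without the trend. *Aurka* was at 49.9, 76.5 and 45.0 FPKM in MFN1-KD and at 445, 252 and 355 FPKM in H3.3-KD, a difference of -2.60 (SE 0.31, adjusted p = 0.0014) for this mitotic kinase. *Cdc6* and *Cdt1*, which license replication origins, differed by -1.81 (SE 0.22, adjusted p = 0.00156) and -1.94 (SE 0.22, adjusted p = 0.00128), and the call of *Cdt1* was lost without the trend. *Plk4* was at 141, 87.3 and 207 FPKM in MFN1-KD and at 28.2, 27.7 and 30.5 FPKM in H3.3-KD. The kinase of centriole duplication was thus higher, at 2.21 (SE 0.34, adjusted p = 0.00335), with control between the groups.

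Of 46 autophagy and mitophagy genes 19 were lower (41.3%, against 21.5% of all genes) and 2 higher. The median was -0.52 relative to all genes, and 8 of the 19 were lower in all 4 settings. Without the trend 8 were lower and 3 higher. *Map1lc3a* was at 155, 125 and 53.5 FPKM in MFN1-KD and at 1385, 1515 and 1088 FPKM in H3.3-KD. This LC3 protein of the autophagosome membrane differed by -3.68 (SE 0.39, adjusted p = 0.00101), with control between the groups at 289, 293 and 253 FPKM. *Fkbp8*, a mitophagy receptor of the outer mitochondrial membrane, differed by -3.00 (SE 0.26, adjusted p = 6.5e-04), and *Atg9a*, a lipid scramblase, by -2.62 (SE 0.27, adjusted p = 8.8e-04). *Atg10*, which conjugates ATG12, was higher at 2.22 (SE 0.39, adjusted p = 0.00539).

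Of 45 genes of glycolysis, pyruvate and the TCA cycle 11 were lower (24.4%, near the 21.5% of all genes) and 1 higher. The counts were 2 and 2 without the trend. *Ldha* was at 10.7, 6.79 and 1.51 FPKM in MFN1-KD and at 33.9, 63.9 and 70.4 FPKM in H3.3-KD. Lactate dehydrogenase A differed by -3.16 (SE 0.59, adjusted p = 0.00697), while *Hk2*, hexokinase, was the gene called higher, at 39.6, 49.7 and 74.7 FPKM in MFN1-KD and 5.88, 9.78 and 4.08 FPKM in H3.3-KD, a difference of 2.90 (SE 0.39, adjusted p = 0.00227). Of 35 antioxidant enzymes 5 were lower (14.3%) and 1 higher (2.86%), both under the shares of all genes. The counts were 2 and 4 without the trend and 1 and 1 in all 4 settings. *Hmox1*, haem oxygenase, differed by -2.98 (SE 0.41, adjusted p = 0.00233), and the mitochondrial glutaredoxin *Glrx2* by 1.89 (SE 0.26, adjusted p = 0.00227).

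Splicing genes were called in both directions. Of 61 tested 13 were higher (21.3%, against 7.57% of all genes) and 14 lower (23.0%, against 21.5%). The counts were 9 and 8 in all 4 settings and 12 and 10 without the trend. *Lsm7* was at 1094, 923 and 1682 FPKM in MFN1-KD and at 171, 192 and 135 FPKM in H3.3-KD. This small subunit of the LSm ring differed by 2.85 (SE 0.27, adjusted p = 7.4e-04). *Prpf19* was at 1.84, 3.47 and 1.44 FPKM in MFN1-KD and at 77.6, 85.4 and 70.1 FPKM in H3.3-KD. The spliceosome-activating ubiquitin ligase differed by -4.64 (SE 0.33, adjusted p = 3.3e-04), *Sf3a2* of the U2 snRNP by -4.71 (SE 0.40, adjusted p = 6.4e-04) and *U2af2*, which binds the polypyrimidine tract, by -3.49 (SE 0.25, adjusted p = 3.3e-04). In control, *Prpf19* was at 1.89, 2.05 and 1.34 FPKM, overlapping MFN1-KD. Of 59 RNA polymerase and elongation genes 8 were higher (13.6%) and 16 lower (27.1%). The counts were 10 and 6 without the trend and 7 and 6 in all 4 settings. The NELF subunits *Nelfb* and *Nelfa*, which pause polymerase II, differed by -2.61 (SE 0.31, adjusted p = 0.0014) and -2.45 (SE 0.29, adjusted p = 0.00142), and *Med13* of the Mediator kinase module by 2.26 (SE 0.39, adjusted p = 0.00511). Of 26 Wnt pathway genes 7 were lower (26.9%, against 21.5% of all genes) and 1 higher (3.85%), and 2 and 1 without the trend. *Gsk3a*, a kinase of the beta-catenin destruction complex, differed by -3.83 (SE 0.35, adjusted p = 6.8e-04), and *Csnk1e*, casein kinase 1 epsilon, was at 74.8, 69.4 and 43.5 FPKM in MFN1-KD and 818, 892 and 848 FPKM in H3.3-KD, a difference of -3.78 (SE 0.26, adjusted p = 3.3e-04). Of 19 imprinted genes 2 were higher (10.5%, against 7.57% of all genes), *Ube3a* at 1.85 (SE 0.32, adjusted p = 0.00502) and *Peg3* at 1.54 (SE 0.42, adjusted p = 0.0293), and 0 lower. The call of *Ube3a* was lost without the trend, and that of *Peg3* with the replicate block and without any 1 of 5 libraries. The plot of gene lists sets these shares beside those of all genes.

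**Figure D5:**
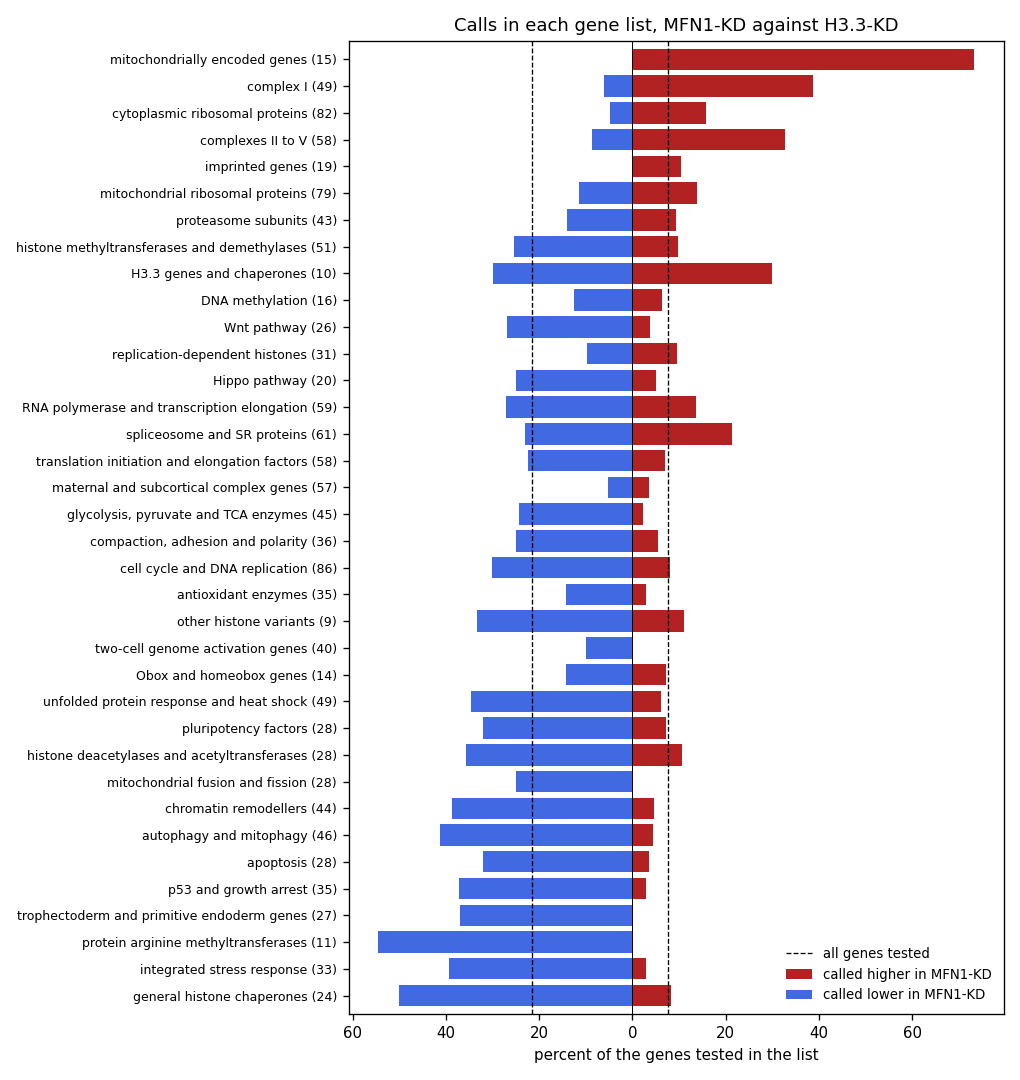
Percent of the tested genes of each of 36 lists that were called higher (red, right) or lower (blue, left) in MFN1-KD, with the number tested in parentheses and dashed lines at the shares of all genes, 7.57% and 21.5%. The list of 15 mitochondrially encoded genes reaches 73.3% higher, and that of protein arginine methyltransferases reaches 54.5% lower.

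Markers of cells other than the embryo were few. Of 26 cumulus and granulosa markers 3 were tested and 1, *Amhr2*, was lower, at 19.3, 17.9 and 10.2 FPKM in MFN1-KD, 43.1, 38.0 and 66.1 FPKM in H3.3-KD and 29.8, 16.1 and 20.7 FPKM in control. The summed FPKM of that list was 14.6 to 27.1 in MFN1-KD and 43.8 to 75.0 in H3.3-KD, most of it *Amhr2*. Of 15 sperm markers 3 were tested and *Odf2* was lower, at -1.28 (SE 0.37, adjusted p = 0.0362), with sums of 8.09 to 19.9 and 21.1 to 23.2 FPKM. Of 17 fibroblast and blood markers 6 were tested, of which *Hba-a1*, alpha globin, was higher at 1.73 (SE 0.50, adjusted p = 0.0351) and *Cd68* lower at -1.63 (SE 0.38, adjusted p = 0.0155). The calls of *Amhr2*, *Odf2* and *Cd68* were lost after removal of the GC and length trend, and those of *Odf2* and *Hba-a1* without any 1 of the H3.3-KD libraries. The part of other cells in the differences was not tested.

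The pools also differed in genes of the sex chromosomes, 8 of which were tested and 0 called. *Eif2s3y* was at 34.2, 34.8 and 0.03 FPKM in MFN1-KD and at 0, 10.4 and 7.01 FPKM in H3.3-KD. This Y-linked gene was thus close to 0 in 1 pool of each group. *Xist* was at 42.6, 8.79 and 2.58 FPKM in MFN1-KD and at 2.12, 2.63 and 0.07 FPKM in H3.3-KD. *Xist*, the RNA of X inactivation, was highest in MFN1-KD replicate 1 and lowest in H3.3-KD replicate 3, and was not called at 2.33 (SE 0.91, adjusted p = 0.0882). The part of the sex of the embryos in the differences was not tested.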

How the data were processed

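FPKM of 55335 entries in 9 libraries were deposited by the authors, rounded to 2 decimals. Per the labels and the study's methods, reads were trimmed with cutadapt 1.16 and mapped to mm10 with STAR; which program and annotation gave FPKM, and whether strand was used, is not given in the sources used here. The study tested counts with Deseq2; counts were not used here.

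The 6 MFN1-KD and H3.3-KD libraries were fitted with limma 3.58.1 (trend, robust) under R 4.3.3 on log2(FPKM + 1), for genes averaging 1 FPKM or more. In simulated data with 200 of 13187 genes changed by 2 on the log2 scale, the fit recovered 73 (36.5%) and called 4 unchanged genes. In the data 3835 genes (29.1%) were called, and the adjusted p depends on the share of genes that differ. The recovery in the data was therefore not measured by the simulation. A gene that was not called may still differ. Positions, GC content and transcript length are from GENCODE M21 on GRCm38, with values for 98.2% of the genes tested. Genes named are a list of core genes, the 10 largest differences in each direction among called protein-coding genes with no overlap and a mean of at least 10 FPKM, and up to 3 called members with the smallest p, and the member furthest against the others, of each of 40 lists. *Cabin1*, *Hirip3*, *Dek* and 4 mitochondrial genes were named after their values were seen. Members and lists were chosen with earlier results of these data known, so no list was tested. Alternatives were median-ratio and upper-quartile scaling, removal from each library of its trend over GC and length (splines with 5 degrees of freedom), other filters, a pseudocount of 0.1, library weights, all 9 libraries, a replicate block and each library left out. Python 3.11.15 with pandas 2.3.3, numpy 2.4.6 and, for the plots, matplotlib 3.10.9 was used. A gene that met the rule for named genes is not reported here.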

Additional observations from a re-analysis of the deposited data

How the results depend on the processing

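The number of adjusted calls moved with scaling and filters, while 0 called genes took the opposite call in any setting tried. The 998 higher genes became 1589 with median-ratio scaling, 1707 with upper-quartile scaling, 569 with no filter and 608 with protein-coding genes only. The 2837 lower genes became 1786 with upper-quartile scaling, 1120 without the GC and length trend and 1740 at a mean of at least 10 FPKM. At the threshold of the study, the 1356 higher genes became 2094, 2223, 732 and 817 with median-ratio scaling, upper-quartile scaling, protein-coding genes only and a mean of at least 10 FPKM, and the 3639 lower genes became 1766 without the trend and 1883 at a mean of at least 10 FPKM. The fits with protein-coding genes only and with a mean of at least 10 FPKM test fewer genes and the fit with no filter tests more; the other causes were not tested. Leaving out each library in turn gave 577 to 1054 higher and 1570 to 2664 lower genes. Without H3.3-KD replicate 1 there were 659 higher genes, and without H3.3-KD replicate 2 there were 577 higher and 1570 lower. At the threshold of the study the ranges were 1152 to 1461 higher and 3070 to 3890 lower. The main fit did not take the replicate numbers as pairs. Correlations of same-numbered deviations were 0.0612, 0.052 and 0.138, and those of differently numbered ones -0.114 to 0.07. Whether the numbers mark pairs was not tested. The replicate block gave 943 higher and 2667 lower genes, 867 and 2500 of them among the calls without it. For single named genes, 2390 of the alternative values kept direction and side of the threshold, 110 lost the call, 26 gained it and 35 changed sign. Some core genes not called as deposited had an adjusted p under 0.05 in an alternative. Their smallest values were 0.0139 for *Asns*, 0.0178 for *Xist*, 0.0193 for *Cdx2*, 0.0197 for *Padi6*, 0.0205 for *Dnm1l*, 0.0225 for *Mdm2* and 0.0326 for *Cdkn1a*. Of the genes that changed sign, only *Tead4* was called as deposited, and none was called after the change. Without the trend *Tead4* was at 0.01, *Asf1a* at -0.04, *Atrx* at -0.59, *Cdh1* at 0.23, *Daxx* at 0.57, *Dnmt3b* at 0.42, *Dnmt3l* at 0.84, *Gata3* at 0.04, *Ooep* at 0.22, *Opa1* at -0.09, *Tle6* at 0.60 and *Zscan4d* at 0.04. With median-ratio and upper-quartile scaling *Cdh1* was at 0 and 0.05, *Dnmt3l* at 0.15 and 0.21 and *Zscan4d* at 0.15 and 0.18. With protein-coding genes only *Asf1a* was at -0.03, *Atrx* at -0.08, *Npm2* at -0.14 and *Opa1* at -0.10, and with library weights *Gata6* was at -0.22 and *Opa1* at -0.18. With 1 library left out the ranges were -0.79 to 0.30 for *Dnmt3l*, -0.22 to 0.89 for *Gata6*, -0.01 to 0.60 for *Nanog*, -0.15 to 0.44 for *Npm2*, -0.52 to 0.10 for *Ooep*, -0.23 to 0.38 for *Opa1* and -0.65 to 0.21 for *Zscan4d*. Of 636 list medians relative to all genes under an alternative, 47 in 17 of 40 lists changed sign, 30 of them moving by less than the spread between libraries. Without the trend the sign changed for 8 lists. These were H3.3 genes and chaperones (0.23 to -0.12), other histone variants (-0.27 to 0.03), Hippo (0.17 to -0.18), compaction (-0.07 to 0.24), glycolysis (-0.06 to 0.03), antioxidant enzymes (-0.25 to 0.20), splicing (0.07 to -0.08) and cumulus markers (-0.04 to 0.28). With no filter the medians of DNA methylation genes and of RNA polymerase and elongation genes were both -0.17, and that of the 3 sperm markers was -0.33 without MFN1-KD replicate 3, the lowest of -0.33 to 0.92 with 1 library left out. Depth is unknown, so absence cannot be told from low coverage.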
